A study of Mus musculus with 94 samples.

Results

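The T cell and thymocyte genes followed here are 35 named genes: the CD3 subunits of the T cell receptor, its coreceptors and signalling proteins, surface and cytokine receptors, the recombination genes of immature thymocytes and a set of transcription and chromatin factors. Their members were found as all probes whose platform gene symbol is on the list. Of the 35 genes, 32 had such a probe, with 51 probes among 25697 on the array, out of 16593 genes with a symbol. Lck, Tcf7 and Tox had no probe under that symbol and were not analysed here.

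The arrays held RNA of thymus, spleen, brain and liver of male mice of strain C57BL/6N, 17 weeks old. The labelled groups were homozygous Hmgn1, Hmgn3 and Hmgn5 mutants, each compared with the wild types of its own line, and every group had 4 mice in each tissue, save liver, where the wild types of the Hmgn1 line and of the Hmgn5 line had 3. The labels name the mutated gene only, without the kind of allele. Hmgn genes encode small chromatin proteins that bind nucleosomes. In all, 94 arrays came from 24 mice. Whole organs were profiled, so fewer T cells and less RNA per T cell cannot be told apart.

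T cells mature in the thymus. Immature thymocytes rearrange the genes of their antigen receptor with the recombinase encoded by Rag1 and Rag2, test the new beta chain with the pre-TCR, whose alpha chain is encoded by Ptcra, and pass through a stage that carries both coreceptors, CD4 and CD8, before selection and export. Spleen holds mature T cells among many B cells. Among cells of the T lineage, a thymus against a spleen therefore sets mostly immature cells against mature ones. The organs also differ in their share of other cells, such as B cells, and the part of that share was not tested.

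Intensities are the normalized values deposited by the authors unless stated, and a change is the mean log2(intensity + 16) of labelled mutants less that of wild types, with its standard error (SE). The offset of 16 makes dim probes appear to change less than they did. Tests are by limma, with p adjusted after Benjamini-Hochberg over all tested probes of a tissue and a threshold of 0.05. To be tested, a probe had to lie above 1.64 times the noise of the array on 3 or more arrays of the tissue, a level called well above noise here. Of the member genes, 29 with 45 probes were tested in thymus and 28 with 46 probes in spleen. Ccr9 (a chemokine receptor of thymocytes), Cd8a (the alpha chain of CD8) and Runx3 (a factor of CD8 T cells) were tested in neither tissue, since their single probes were well above noise on 0 or 1 of the 4 arrays of every thymus and spleen group. Cd8a is a defining gene of thymocytes, and its probe was well above noise on 0 thymus arrays. Rag2 was tested in thymus but not in spleen.

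As a check of the genotype labels, Hmgn3 averaged 83.2 ± 12.4 in thymus of labelled Hmgn3 mutants and 260 ± 53.1 in their wild types (SD, n = 4 each), and its log2 change was -1.46 in thymus and -1.70 in spleen. Hmgn3 changed by -0.55 in brain (adjusted p = 0.0175, limma) and by -0.51 in liver of its line (adjusted p = 0.871, limma). In liver 2 of 4 labelled mutants were above noise and the groups overlapped. Hmgn5 passed in thymus of its line (-1.08, adjusted p = 0.00399, limma), but not in spleen (-0.39, adjusted p = 0.23). In liver Hmgn5 was higher in labelled mutants, with 1292, 1126, 1186 and 1180, against 862, 710 and 796 in wild types. The groups did not overlap there (0.59, adjusted p = 0.00181, limma), and in brain it changed by 0.39 (adjusted p = 0.64, limma). The cause of this reversal was not tested. Hmgn1 passed in no tissue of its line, with changes of -0.23 in brain and 0.10 in liver. In thymus it read 1451, 1227, 1320 and 1431 in labelled mutants, against 2300, 1842, 1678 and 1507 in wild types, lower without overlap (-0.41, unadjusted p = 0.0021, adjusted p = 0.284, limma), and in spleen it changed by -0.11 (adjusted p = 0.739, limma) with overlap. Between 12238 and 16422 probes were above noise on an array, and the number of arrays limits the precision.

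Of the 35 members, 27 had an entry in the RefSeq promoter table of GRCm38.p6. The 250 bases before the start are shown for the 4 recombination and pre-TCR genes, which were higher in thymus, and for Il7r, which had the lowest difference, so that members of opposite direction can be read side by side. Capitals mark the letters of 5 motifs searched on both strands. The E-box form bound by E proteins was searched as CAGNTG. The site of the TCF and LEF factors was searched as CTTTGA. The site of the GATA factors was searched as AGATAA. The site of the RUNX factors was searched as TGTGGT. The core of the ETS factors was searched as GGAAGT.
Rag1, chr2:101649533-101649782, minus strand: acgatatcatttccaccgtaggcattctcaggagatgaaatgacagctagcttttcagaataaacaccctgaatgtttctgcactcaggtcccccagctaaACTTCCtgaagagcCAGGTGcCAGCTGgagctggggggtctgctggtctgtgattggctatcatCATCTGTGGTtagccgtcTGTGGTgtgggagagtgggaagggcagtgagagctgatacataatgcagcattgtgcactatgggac
Rag2, chr2:101624462-101624711, plus strand: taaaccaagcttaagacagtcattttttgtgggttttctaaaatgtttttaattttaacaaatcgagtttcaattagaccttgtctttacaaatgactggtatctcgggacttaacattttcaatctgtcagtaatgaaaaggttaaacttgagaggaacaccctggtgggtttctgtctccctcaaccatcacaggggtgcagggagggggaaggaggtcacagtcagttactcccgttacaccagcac
Dntt, chr19:41029025-41029274, plus strand: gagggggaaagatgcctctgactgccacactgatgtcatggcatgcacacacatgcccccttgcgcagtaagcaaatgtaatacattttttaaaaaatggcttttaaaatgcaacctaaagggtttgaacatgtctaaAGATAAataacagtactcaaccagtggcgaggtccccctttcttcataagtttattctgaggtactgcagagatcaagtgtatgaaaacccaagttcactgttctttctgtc
Ptcra, chr17:46763713-46763962, minus strand: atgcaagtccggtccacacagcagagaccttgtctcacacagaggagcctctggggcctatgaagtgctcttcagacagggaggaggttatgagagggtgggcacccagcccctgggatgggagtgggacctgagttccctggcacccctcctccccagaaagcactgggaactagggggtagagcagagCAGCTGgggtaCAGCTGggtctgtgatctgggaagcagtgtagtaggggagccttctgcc
Il7r, chr15:9529877-9530126, minus strand: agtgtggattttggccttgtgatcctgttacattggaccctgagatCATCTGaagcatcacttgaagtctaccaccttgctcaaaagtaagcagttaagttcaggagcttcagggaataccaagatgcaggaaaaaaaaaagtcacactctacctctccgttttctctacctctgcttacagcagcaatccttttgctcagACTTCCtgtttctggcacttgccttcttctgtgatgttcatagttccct
In these letters Rag1 had 3 E-boxes, 2 RUNX matches, one of which overlaps an E-box, and 1 ETS match. Ptcra had 2 E-boxes, Dntt had 1 GATA match, Il7r had 1 E-box and 1 ETS match, and Rag2 had 0 matches of any of the 5. Over the members, 16 of 27 upstream windows held an E-box (59.3%), against 44.5% of 27025 windows of the same length in the table. The ETS letters were in 8 of 27 member windows (29.6%), against 20% of all. The RUNX letters were in 5 (18.5%, against 14.2%), those of TCF and LEF in 4 (14.8%, against 14.0%), and those of GATA in 2 (7.4%, against 10.3%). These counts describe letters in a window and show no binding.

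The first comparison set thymus against spleen within the 12 wild-type mice. Because the authors had normalized each tissue of a line apart, the 24 arrays were quantile-normalized together, and the values of this comparison are on that scale. Of 47 tested member probes, 38 were higher in thymus and 7 lower, where 27.4% and 22.4% of all 18486 tested probes passed in those directions. By gene, on the main probe of each (the one of highest mean), 24 were higher, 4 were lower and 1 did not pass. The median difference of the 29 tested genes was 1.84, against 0.018 over all tested probes. All 11 genes with several tested probes had the same sign on each of them.

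Of the member groups, the recombination and pre-TCR genes had the highest median, 3.37, with 4 of 4 higher in thymus. That median joins the large differences of Rag1 and Dntt with 1.84 for Rag2 and 0.57 for Ptcra. Rag1, a subunit of the recombinase, ranged between 635 and 1111 with a median of 792 in thymus, against 0.0870 to 16.7 with a median of 2.89 in spleen, where 5 of 12 arrays were above noise. Its difference was 5.35 (SE 0.0999, adjusted p = 4.77e-17, limma). Dntt, the polymerase that adds untemplated bases at the joints, ranged between 362 and 701 with a median of 480 in thymus, against -2.00 to 4.91 with a median of 0.463 in spleen, a difference of 4.89 (adjusted p = 4.02e-17, limma), with 3 of 12 spleens above noise. Since most spleens were within noise for both genes, the size of their differences and their order rest on the offset: with a floor of 1 in its place they were 8.05 for Rag1 and 8.35 for Dntt.

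Rag2, the second subunit of the recombinase, was dimmer than the array could follow into spleen. It ranged between 23.5 and 67.3 in thymus, while 0 of 12 spleens were above noise (-4.27 to 2.04), so it was at least 2.98-fold higher in thymus (adjusted p = 2.07e-11, limma). Ptcra ranged between 10.3 and 21.0 with a median of 14.1 in thymus, against 0.398 to 11.9 with a median of 4.95 in spleen (0.57, adjusted p = 1.81e-05, limma), and it was higher in thymus in 11 of 12 mice.

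Genes of the receptor and its signalling were all higher in thymus. The 4 genes of the CD3 complex differed by 1.56 (Cd3e) to 2.00 (Cd3g), with Cd3d at 1.85 and Cd247, the zeta chain, at 1.87. Cd247 was higher in 11 of 12 mice and lower by 1.24 in wild type 4 of the Hmgn5 line, without which the difference was 2.16. The coreceptors Cd4 (1.91) and Cd8b1 (2.13, the beta chain of CD8) passed, as did 4 of 4 tested proximal signalling genes. Trat1, an adaptor that associates with the receptor, had a median of 626 in thymus (373 to 906), against 34.6 in spleen (15.4 to 54.0), a difference of 3.62 (adjusted p = 3.16e-13, limma). Themis, needed for selection of thymocytes, differed by 3.03, the adaptor Lat by 1.99 and the kinase Zap70 by 1.12.

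Surface molecules split by gene. Thy1, a surface glycoprotein of thymocytes, T cells and neurons, was among the brightest members, with 5499 to 7667 in thymus, against 539 to 852 in spleen (3.17). The costimulatory receptors Cd28 (2.32) and Cd27 (1.79) and the inhibitory receptors Cd5 (1.23) and Cd6 (1.17) were higher in thymus. Cd2, an adhesion receptor, was lower in thymus, with 169 to 318, against 281 to 452 in spleen (-0.58, adjusted p = 6.75e-07, limma). Ctla4, an inhibitory receptor of activated and regulatory T cells, was lower at -0.31 (adjusted p = 0.0412) but higher in 4 of 12 mice, and Icos, a costimulator of activated T cells, did not pass (-0.12, adjusted p = 0.367). The signs of Ctla4 and Icos turned on the values as deposited, to 0.04 and 0.30, and neither passed there.

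Among transcription and chromatin factors 4 of 5 tested were higher in thymus: Bcl11b (2.56), a commitment factor of the T lineage, Gata3 (2.19), Satb1 (1.61), a chromatin organiser, and Lef1 (0.73). Foxp3, the factor of regulatory T cells, was lower, with 7.41 to 20.7 in thymus, against 39.5 to 80.1 in spleen (-1.38, adjusted p = 8.1e-11, limma). Il7r, the alpha chain of the interleukin-7 receptor, which double-positive thymocytes switch off, had the lowest difference of all members. It ranged between 57.2 and 190 with a median of 106 in thymus, against 254 to 447 with a median of 300 in spleen (-1.43, adjusted p = 1.41e-08, limma), and was higher in thymus in 0 of 12 mice.

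**Figure D1:**
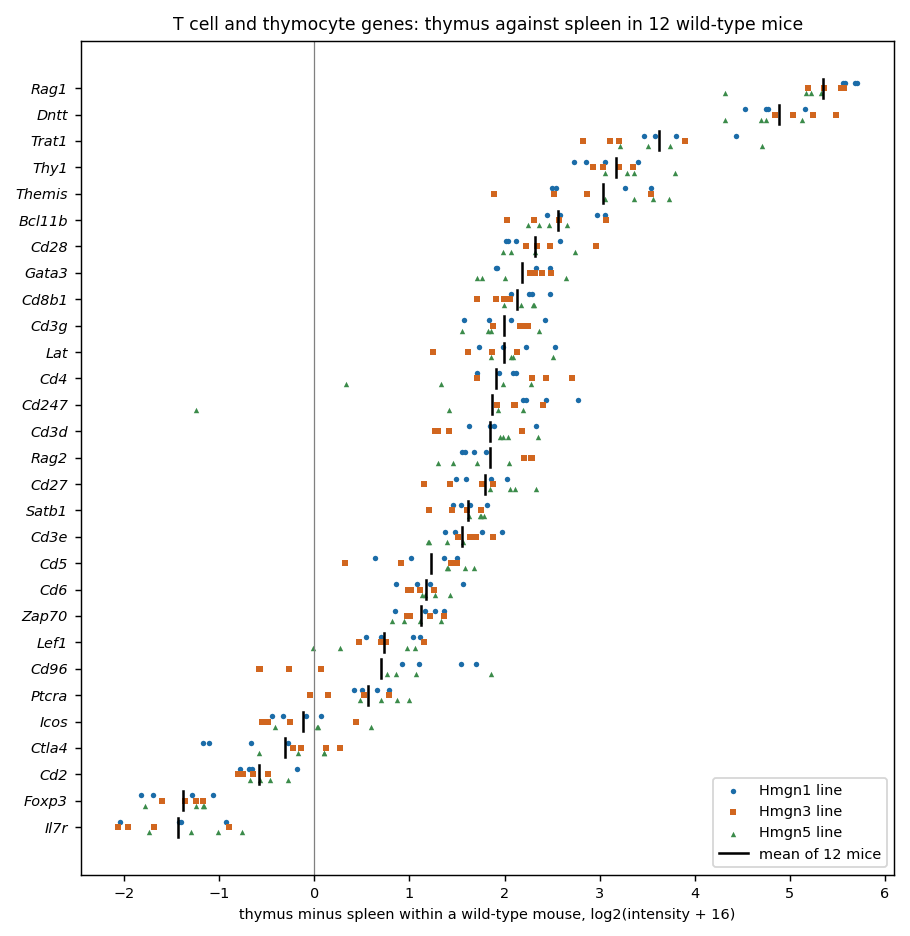
Thymus minus spleen of each of 12 wild-type mice as log2(intensity + 16), after quantile normalization of the 24 arrays together; each row is the main probe of a gene, points are mice marked by line and the black bar is the mean. Rag1 and Dntt lie furthest right at 5.35 and 4.89, Il7r and Foxp3 furthest left at -1.43 and -1.38, and 1 Hmgn5 wild type lies apart for Cd247.

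Cd96, an adhesion receptor of T and NK cells, depended on the line. In thymus of the Hmgn3 line its deposited values lay between -0.172 and 1.31 in labelled mutants and between -1.98 and 1.91 in wild types, and 0 of 8 arrays were above noise. In the Hmgn1 line the same probe ranged between 72.1 and 95.2 in labelled mutants and between 81.5 and 142 in wild types, and in the Hmgn5 line between 41.6 and 146 in labelled mutants and between 56.7 and 229 in wild types, above noise on all 16 arrays. In spleen it was above noise on 4 of 8 arrays of the Hmgn3 line and on all 8 of each other line. Lines were normalized apart, so these levels are set side by side without a test. Across the 12 wild-type mice Cd96 was higher in thymus by 0.71 (adjusted p = 0.00803, limma), in 9 of 12 mice, and in the Hmgn3 line alone it was -0.26.

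The markers of immature thymocytes (Rag1, Rag2, Ptcra, Dntt, Themis, with Ccr9 untested) were higher in thymus in 5 of 5 tested genes, with a median of 3.03. Those of mature T cells (Il7r, Cd6, Icos, Ctla4, Foxp3, Cd96, with Runx3 untested) were higher for 2, lower for 3 and not past the test for 1, with a median of -0.21. The mean log2 level of the immature list minus that of the mature list, taken per array, was larger in thymus than in spleen of the same wild-type mouse by 2.32 to 3.17, with a median of 2.82 over 12 mice. These means kept the untested Ccr9 and Runx3, whose probes lay at the floor on most arrays, which makes this difference smaller. The size of this difference depends on the offset, since Rag1, Rag2 and Dntt lay within noise in most spleens. The labelled mutants gave 38 member probes higher and 9 lower in thymus among 47, where 27.3% and 22.7% of 18960 probes passed in those directions.

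Genes of the same pathways outside the 35 went both ways in each list. Of all tested probes, 27.4% were higher in thymus and 22.4% lower. Of 17 other early and double-positive genes tested, 11 were higher in thymus and 3 lower, led by Arpp21 (6.98, at least 107-fold), Aqp11 (5.17) and Endou (4.49), while the Notch targets Dtx1 (-3.02) and Hes1 (-1.29) were lower. Of 22 other late and peripheral T cell genes, 3 were higher (Lgals1, Ikzf2 and Cd69) and 15 lower, among them Cd44 (-2.29), Klf2 (-2.23), Cxcr3 (-2.21) and Ccl5 (-2.00). Of 22 other receptor signalling genes, 10 were higher, with Sh2d1a at 3.36 and Rasgrp1 at 1.45, and 4 were lower, with Malt1 at -1.61 and Nfatc1 at -1.22. Cell types of each organ moved with these differences: 9 of 10 B cell markers were lower in thymus (median -4.14), 9 of 10 markers of thymic epithelium and 12 of 12 of dividing cells were higher. Their part in the levels of the members was not tested.

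The second comparison set labelled mutants against wild types in thymus. No member probe passed in any line: 0 of 45 by limma in each, where 0.0494% of 18202 probes passed in the Hmgn1 line, 0.011% in the Hmgn3 line and 0.0934% in the Hmgn5 line. At an unadjusted p under 0.05, 7, 6 and 3 member probes were lower in labelled mutants of the Hmgn1, Hmgn3 and Hmgn5 lines and 0, 1 and 2 were higher, where 4.81%, 4.03% and 5.24% of all probes were lower and 3.55%, 2.27% and 3.9% higher at that p. The log2 change was below 0 for 23, 21 and 19 of 29 member genes, against 50.4%, 52.8% and 49.1% of all probes. Their medians were -0.11, -0.13 and -0.14, against -0.0012, -0.01 and 0.0026 over all probes. Single arrays moved these medians: without wild type 4 that of the Hmgn1 line was -0.17, without labelled mutants 2 and 3 in turn that of the Hmgn3 line was -0.21 and -0.08, and without labelled mutant 4 that of the Hmgn5 line was -0.05.

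Without overlap between the groups, 5, 7 and 1 of 45 member probes were lower in labelled mutants of the Hmgn1, Hmgn3 and Hmgn5 lines and 1, 0 and 1 were higher, where 3.32%, 3.46% and 1.95% of all probes were lower and 2.71%, 1.86% and 1.2% higher in that way.

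Across lines, 13 of 29 member genes (44.8%) had a change below 0 in all 3 lines, against 18.1% of all tested probes. A change above 0 in all 3 lines was found for 2 member genes, Cd4 and Satb1 (6.9%, against 16% of all probes). The wild types of each line are its own, so the 3 lines share no array. Surface and costimulatory genes made up 6 of the 13: Cd2, Cd5, Cd6, Cd28, Icos and Thy1.

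Il7r had the lowest change of the 29 main probes in each of the 3 lines, without passing in any. In the Hmgn1 line it read 65.2, 85.2, 69.2 and 60.8 in labelled mutants, against 166, 120, 117 and 74.5 in wild types (-0.62, SE 0.189, adjusted p = 0.315, limma). In the Hmgn3 line it read 44.3, 44.1, 32.5 and 35.4 in labelled mutants, against 99.4, 62.9, 48.9 and 45.4 in wild types (-0.50, adjusted p = 0.604, limma). The Hmgn5 line had 167, 157, 160 and 150 in labelled mutants, against 316, 205, 204 and 199 in wild types (-0.48, adjusted p = 0.403, limma). The groups did not overlap in the Hmgn3 and Hmgn5 lines, and in the Hmgn1 line only labelled mutant 2 exceeded the lowest wild type. In a fit with a running number as a covariate (1 to 4 for wild types and 5 to 8 for labelled mutants, so tied to genotype), the changes of Il7r were 0.04, 0.15 and 0.18 in the 3 lines. A second Il7r probe, dimmer, changed by -0.37, 0.06 and -0.21 in the 3 lines.

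Other surface and CD3 genes read lower in part of the lines. Thy1 in the Hmgn3 line had 3560, 3720, 2964 and 3215 in labelled mutants, against 4598, 4425, 3926 and 4604 in wild types (-0.38, adjusted p = 0.332, limma), groups that did not overlap; its changes were -0.01 and -0.11 in the Hmgn1 and Hmgn5 lines. Cd28 in the same line read 617, 489, 497 and 505 in labelled mutants, against 695, 870, 716 and 690 in wild types (-0.48, adjusted p = 0.492, limma), again without overlap, and changed by -0.36 and -0.14 in the Hmgn1 and Hmgn5 lines. Cd3g, the gamma chain of CD3, changed by -0.29, -0.32 and -0.17 and Cd3e by 0.00, 0.04 and -0.01 in the 3 lines. None of these passed.

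The recombination genes varied within their groups. Rag1 in the Hmgn1 line read 1057, 999, 809 and 1170 in labelled mutants, against 1436, 1208, 1037 and 1136 in wild types (-0.25, adjusted p = 0.574, limma). In the Hmgn3 line it read 521, 547, 525 and 511 in labelled mutants, against 612, 488, 597 and 566 in wild types (-0.10). In the Hmgn5 line it read 1361, 1235, 1227 and 1017 in labelled mutants, against 1184, 1066, 1084 and 1016 in wild types (0.15). The groups overlapped in every line.

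Rag2 read lower in each line without passing. It had 41.1, 38.9, 42.8 and 28.3 in labelled Hmgn1 mutants, against 40.4, 42.3, 52.7 and 46.6 in wild types (-0.20). In the Hmgn3 line it had 32.9, 39.7, 20.2 and 31.7 in labelled mutants, against 42.5, 39.5, 43.1 and 46.6 in wild types (-0.34). The Hmgn5 line had 60.1, 46.0, 56.6 and 32.2 in labelled mutants, against 39.5, 46.6, 61.4 and 90.1 in wild types (-0.20), with wild type 4 the highest.

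Dntt overlapped between genotypes in all lines. It read 592, 559, 704 and 703 in labelled Hmgn1 mutants, against 907, 469, 629 and 554 in wild types (0.03). In the Hmgn3 line it read 328, 461, 264 and 377 in labelled mutants, against 434, 402, 323 and 515 in wild types (-0.23). In the Hmgn5 line it read 843, 504, 494 and 717 in labelled mutants, against 649, 649, 857 and 753 in wild types (-0.21). Ptcra was close to noise, with 9.13, 14.5, 23.2 and 20.8 in labelled Hmgn1 mutants, against 18.4, 23.2, 21.2 and 13.2 in wild types (-0.10). It had 3.58, 12.9, 15.0 and 4.27 in labelled Hmgn3 mutants, against 14.8, 8.60, 13.2 and 8.21 in wild types (-0.15), and 31.5, 20.1, 20.5 and 34.5 in labelled Hmgn5 mutants, against 21.4, 23.5, 19.1 and 33.6 in wild types (0.07). Its groups overlapped in every line.

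Cd4 read higher in all 3 lines without passing. In the Hmgn5 line it had 241, 243, 248 and 256 in labelled mutants, against 106, 176, 236 and 36.8 in wild types, a change of 0.98 (SE 0.297, adjusted p = 0.235, limma), and in the Hmgn1 line 280, 235, 254 and 227 in labelled mutants, against 138, 183, 178 and 192 in wild types (0.50, adjusted p = 0.709, limma). Neither pair of groups overlapped. In the Hmgn3 line it read 98.97, 113, 67.0 and 117 in labelled mutants, against 73.9, 51.3, 118 and 94 in wild types (0.22), with overlap. The other tested coreceptor gene, Cd8b1, changed by -0.11, -0.01 and 0.20 in the Hmgn1, Hmgn3 and Hmgn5 lines.

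Wild type 4 of the Hmgn5 line stood apart in thymus. Its Cd247 value was 16.65, while the other wild types of the line read 407, 486 and 618 and the labelled mutants 521, 527, 381 and 399. It was the lowest wild type for Cd4 as well, and the highest for Icos (90.9), Foxp3 (34.8), Cd96 (229) and Rag2 (90.1). Without it, a setting chosen after its values were seen, the change of Cd247 was -0.13 in place of 0.86, that of Cd4 was 0.54 in place of 0.98, and 21 of 29 genes lay below 0 in place of 19.

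**Figure D2:**
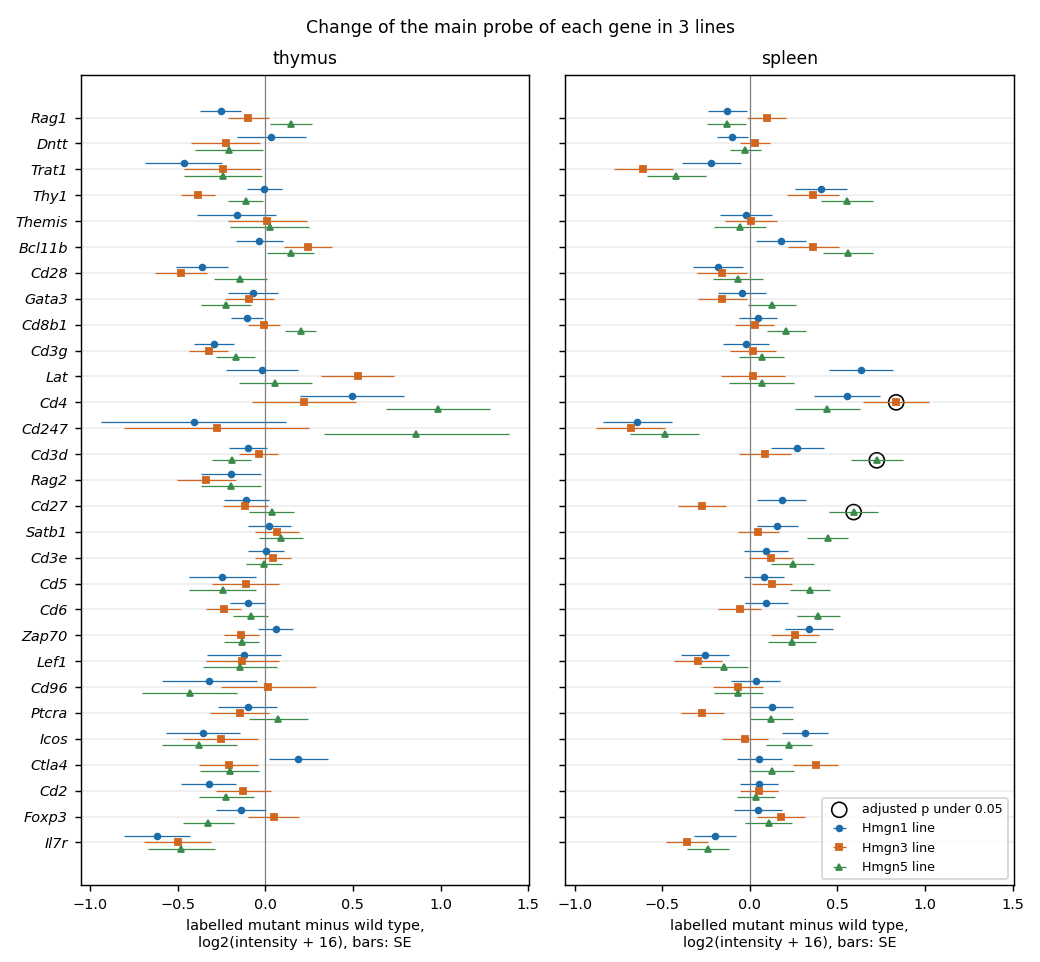
Change in log2(intensity + 16) of the main probe of each tested member gene, labelled mutants less wild types, in thymus (left) and spleen (right), with 1 point a line, bars of 1 SE and genes in the order of their thymus minus spleen difference. Black rings mark the 3 genes whose main probe passed at an adjusted p under 0.05, all in spleen: Cd4 in the Hmgn3 line and Cd3d and Cd27 in the Hmgn5 line.

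The index of immature minus mature markers in thymus was higher in labelled mutants than the mean of their wild types by 0.11 (-0.01 to 0.24, wild types -0.07 to 0.09) in the Hmgn1 line, by 0.03 (-0.01 to 0.05, wild types -0.20 to 0.13) in the Hmgn3 line and by 0.26 (0.16 to 0.32, wild types -0.28 to 0.21) in the Hmgn5 line. Labelled mutants and wild types overlapped in every line, and in the Hmgn5 line the difference was 0.16 without wild type 4. In spleen the index differed by -0.07, -0.02 and -0.11. The organs themselves differed by 2.82. Ccr9 and Runx3, untested in both organs, are part of this index. In wild-type spleens Rag1, Dntt, Rag2, Ptcra and Themis were above noise on 5, 3, 0, 7 and 11 of 12 arrays. The spleen index and the size of the difference between organs therefore depend on the offset.

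**Figure D3:**
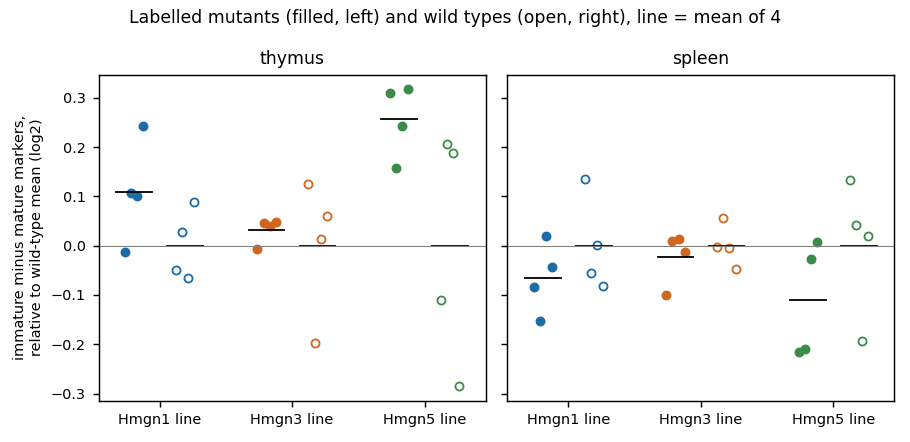
Immature minus mature markers on each array of thymus (left) and spleen (right), as a difference from the mean of the wild types of the line on the log2 scale; filled points are labelled mutants, open points wild types and bars the mean of 4. The 4 labelled Hmgn5 mutants lie between 0.16 and 0.32 in thymus, and the highest wild type of that line at 0.21.

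Other T cell genes in thymus were read beside the members. Of 20 other late and peripheral genes tested, 16 lay below 0 in each line and 13 in all 3, and 1 lay above 0 in all 3. Ccl5, a chemokine of memory T and NK cells, passed in the Hmgn1 line, with 35.9, 44.2, 50.5 and 26.8 in labelled mutants, against 157, 88.4, 150 and 74.8 in wild types, a change of -1.23 (SE 0.21, adjusted p = 0.0117, limma) with no overlap. That call was lost without labelled mutant 1 (adjusted p = 0.0595), labelled mutant 4 (0.0709), wild type 1 (0.0989) or wild type 3 (0.0886), and the changes in the Hmgn3 and Hmgn5 lines were -0.56 and -0.67 (adjusted p = 0.604 and 0.253). Of 21 other receptor signalling genes 7 lay below 0 in all 3 lines and 0 above, and of 17 other early genes 5 lay below and 2 above.

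Markers of other cells were read in thymus too, and 0 of those of fat, erythroid and dividing cells, skeletal muscle and thymic epithelium passed in any line by limma. By sign alone, 5 of 8 of fat cells, 4 of 5 of erythroid cells, 4 of 13 of dividing cells and 3 of 13 of skeletal muscle lay above 0 in all 3 lines and 0 of each lay below, while 3 of 10 of thymic epithelium lay below; of all probes 16% lay above 0 and 18.1% below in all 3 lines. At an unadjusted p under 0.05, 7 of 13 muscle markers were higher in the Hmgn3 line. Of 6 tested NK cell markers 0 passed in any line, and 5, 2 and 4 lay below 0 in the Hmgn1, Hmgn3 and Hmgn5 lines. At that unadjusted p 3 were lower in the Hmgn1 line, where 4.81% of all probes were. Summed NK markers were 257 to 319, 139 to 195 and 332 to 353 in labelled mutants of the 3 lines. They were 327 to 472, 107 to 175 and 352 to 484 in wild types. The mean log2 level of the muscle markers was 8.22 in labelled Hmgn1 mutant 4, 7.98 and 7.91 in labelled Hmgn3 mutants 1 and 3, 6.82 in labelled Hmgn5 mutant 4 and 7.93 in Hmgn5 wild type 1, and 4.69 to 5.98 in the other 19 thymuses. With labelled mutants of high muscle level left out, 23 of 29 genes lay below 0 in the Hmgn1 line (median -0.13) and 16 in the Hmgn3 line (median -0.05). With the muscle level as a covariate, 23, 19 and 19 lay below 0 in the 3 lines. The part of the other markers was not tested.

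The third comparison set labelled mutants against wild types in spleen. Of 46 member probes, 3 passed in the Hmgn1 line, all lower, 1 in the Hmgn3 line, higher, and 2 in the Hmgn5 line, both higher. Over all 18519 tested probes 2.01%, 1.28% and 0.389% passed as lower and 1.08%, 0.832% and 0.513% as higher in the Hmgn1, Hmgn3 and Hmgn5 lines. These counts are of 1 to 3 probes, and each call was lost without some single arrays. In all 3 lines 13 of 28 member genes (46.4%) had a change above 0 and 5 (17.9%) one below, against 23.7% and 21.7% of all probes. The medians of the member genes were 0.05, 0.02 and 0.12 in the Hmgn1, Hmgn3 and Hmgn5 lines, and 10, 11 and 9 of 28 genes lay below 0, against 48.5%, 48.2% and 48.8% of all probes. Without single arrays the counts below 0 ranged between 7 and 17, 9 and 16, and 6 and 11, with 17 in the Hmgn1 line without wild type 1 and 16 in the Hmgn3 line without wild type 1. The medians of these 2 lines were -0.0066 and -0.0185 without that array, and that of the Hmgn3 line was -0.0056 without labelled mutant 3.

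At an unadjusted p under 0.05, 6, 4 and 10 member probes were higher in labelled mutants of the 3 lines and 8, 7 and 5 lower, where 8.81%, 7.59% and 7.6% of all probes were higher and 10.4%, 7.66% and 6.94% lower. Without overlap between the groups, 2, 2 and 7 member probes were higher and 3, 4 and 2 lower, where 4.77%, 3.79% and 4.06% of all probes were higher and 5.29%, 3.98% and 3.77% lower.

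Cd3d, the delta chain of CD3, rose in the Hmgn5 line. It read 725, 591, 569 and 683 in labelled mutants, against 398, 354, 431 and 345 in wild types, groups that did not overlap (0.72, SE 0.149, adjusted p = 0.0251, limma). Its changes in the Hmgn1 and Hmgn3 lines were 0.27 and 0.09, and a test of the difference between lines did not pass (adjusted p = 0.908, limma F test). The call was lost without wild type 1 (adjusted p = 0.0614), wild type 2 (0.0833), labelled mutant 2 (0.0592) or labelled mutant 4 (0.0854).

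Cd27, a costimulatory receptor of the tumour necrosis factor family, rose in the same line, with 459, 393, 469 and 449 in labelled mutants, against 245, 239, 321 and 363 in wild types (0.59, SE 0.138, adjusted p = 0.0381, limma). The groups did not overlap, but its further probes, with means of 30.8 and 3.24 in labelled mutants and 31.1 and 2.38 in wild types, changed by -0.01 and 0.07. Its changes were 0.18 in the Hmgn1 line and -0.27 in the Hmgn3 line, and the difference between lines had the smallest adjusted p of the members, 0.498 (limma F test, which 0.0162% of all probes passed). The call was kept only without wild type 4 (adjusted p = 0.0172) and was lost without any other single array of the line: wild types 1 to 3 gave 0.153, 0.135 and 0.0504, and labelled mutants 1 to 4 gave 0.053, 0.073, 0.0778 and 0.101.

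Cd4 rose in the Hmgn3 line, with 17.0, 40.9, 27.4 and 21.6 in labelled mutants, against 1.67, 7.88, 11.7 and 9.95 in wild types, of which 3 of 4 were above noise (0.84, SE 0.187, adjusted p = 0.0237, limma). It read higher in each of the other lines: 28.8, 53.3, 33.6 and 56.4 in labelled Hmgn1 mutants, against 16.5, 21.7, 21.7 and 36.1 in wild types (0.55, adjusted p = 0.0994, limma), and 11.6, 20.8, 28.7 and 12.2 in labelled Hmgn5 mutants, against 8.91, 8.50, 9.52 and 8.20 in wild types (0.44, adjusted p = 0.254, limma). Groups overlapped only in the Hmgn1 line. Cd4 thus had a change above 0 in all 3 lines in thymus and in spleen. The call in the Hmgn3 line was lost without wild type 1 (adjusted p = 0.105), wild type 2 (0.0671), labelled mutant 2 (0.0595), labelled mutant 3 (0.0848) or labelled mutant 4 (0.0507).

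The 3 lower calls of the Hmgn1 line were each on a dim further probe of a gene. For Cd28 the probe read 38.0, 14.9, 14.0 and 13.2 in labelled mutants, against 33.8, 49.98, 44.9 and 44.4 in wild types (-0.76, SE 0.153, adjusted p = 0.0177, limma), and labelled mutant 1 alone reached into the wild-type range. The same probe read 11, 9.69, 4.29 and 5.62 in labelled Hmgn3 mutants, against 18.3, 16.2, 13.2 and 17.95 in wild types (-0.46, adjusted p = 0.111, limma), and 8.15, 1.86, 7.48 and 7.51 in labelled Hmgn5 mutants, against 17.2, 13.5, 11.1 and 10.5 in wild types (-0.39, adjusted p = 0.206, limma). In both of these lines the groups did not overlap. Another dim probe of Cd28 changed by -0.61, -0.49 and -0.74, while the bright main probe changed by -0.18, -0.16 and -0.07. The call was lost without wild type 1 (adjusted p = 0.0532), wild type 2 (0.0548), labelled mutant 3 (0.0692) or labelled mutant 4 (0.0711).

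For Trat1 the dim probe fell to 5.15, 3.54, 5.84 and 10.1 in labelled Hmgn1 mutants, against 14.9, 15.7, 15.5 and 14.0 in wild types, with no overlap (-0.49, SE 0.113, adjusted p = 0.0235, limma). The main probe changed by -0.22 in that line, by -0.61 in the Hmgn3 line (adjusted p = 0.0562, limma), where the groups did not overlap, and by -0.42 in the Hmgn5 line. The call was lost without wild type 1 (adjusted p = 0.0976), wild type 2 (0.062), labelled mutant 2 (0.0691) or labelled mutant 3 (0.077).

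For Zap70, the kinase recruited to the phosphorylated receptor, probes went opposite ways. The dim probe read 9.87, 16.8, 8.40 and 3.36 in labelled Hmgn1 mutants, against 16.4, 22.7, 25.0 and 19.4 in wild types (-0.55, SE 0.148, adjusted p = 0.0425, limma). The main probe read 331, 354, 328 and 307 in labelled mutants, against 201, 244, 271 and 330 in wild types (0.34, adjusted p = 0.166, limma), and the third probe changed by 0.31. This opposition held in all 3 lines: the dim probe changed by -0.55, -0.18 and -0.29, the main probe by 0.34, 0.26 and 0.24, and the third by 0.31, 0.10 and 0.47. The call of the dim probe was lost without any array of the line except labelled mutants 1 and 2: wild types 1 to 4 gave adjusted p = 0.0976, 0.112, 0.104 and 0.0546, and labelled mutants 3 and 4 gave 0.111 and 0.181.

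**Figure D4:**
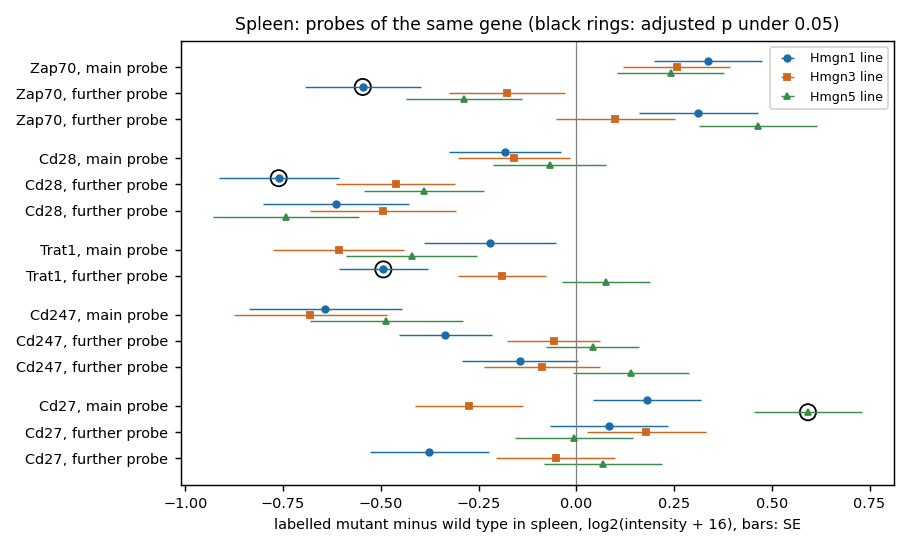
Change in log2(intensity + 16) in spleen, labelled mutants less wild types, with bars of 1 SE, for each tested probe of 5 genes, with 1 point a line and black rings at an adjusted p under 0.05. The main probe of Zap70 lies right of 0 and its dim probe left of 0 in all 3 lines; the ring of Cd27 has no counterpart on its further probes.

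Probes of one gene often differed in sign. In spleen 5, 4 and 6 of 11 genes with several tested probes had probes of opposite sign in the Hmgn1, Hmgn3 and Hmgn5 lines, and in thymus 3, 3 and 5 of 10, whereas 0 of 11 did between the organs. Cd247, the zeta chain, is a further case: its main probe changed by -0.64, -0.68 and -0.49 in spleen (adjusted p = 0.0695, 0.0675 and 0.223, limma), another by -0.34, -0.06 and 0.04 and the third by -0.14, -0.09 and 0.14. Which transcripts or sequences the probes of a gene read was not tested.

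Several bright members read higher in spleen of labelled mutants without passing. Thy1 changed by 0.40, 0.36 and 0.56 in the Hmgn1, Hmgn3 and Hmgn5 lines (smallest adjusted p = 0.0656, limma) and Bcl11b by 0.18, 0.36 and 0.56 (0.0561). In the Hmgn5 line Satb1 changed by 0.44 (adjusted p = 0.0625, limma), and in the Hmgn1 line Lat by 0.63 (adjusted p = 0.0572, limma), with 210, 366, 285 and 381 in labelled mutants, against 160, 198, 208.5 and 194 in wild types. Il7r read lower as in thymus, by -0.20, -0.36 and -0.24, and Lef1 by -0.26, -0.30 and -0.15. Rag1, Dntt and Ptcra lay at or near noise in spleen, with changes between -0.27 and 0.12.

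**Figure D5:**
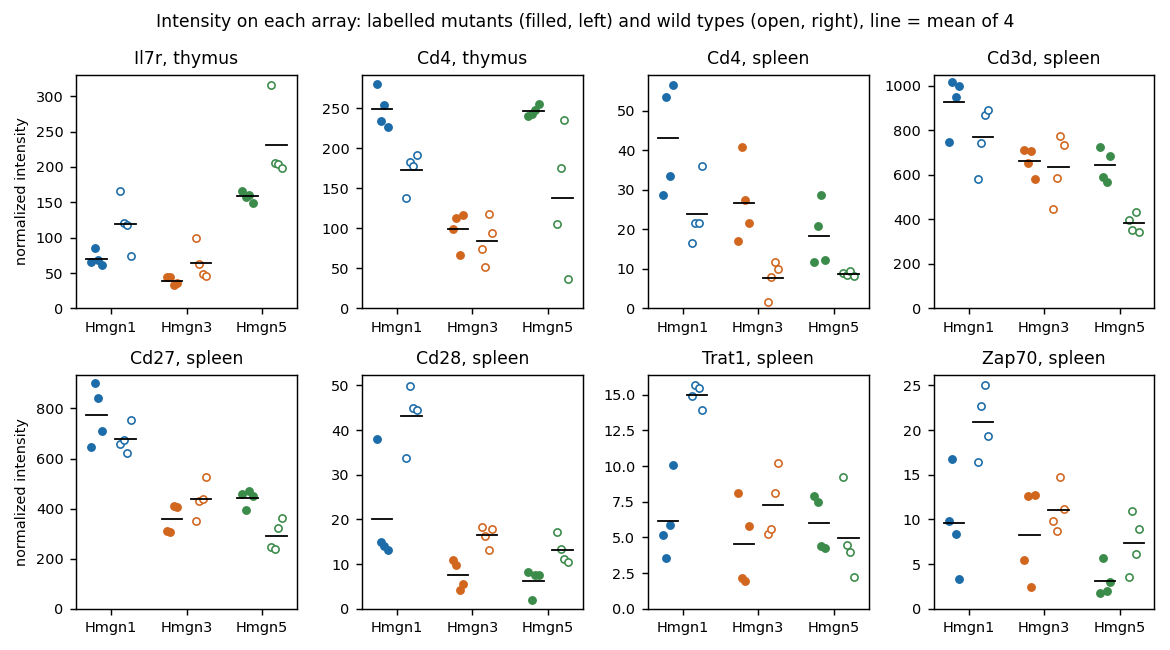
Deposited normalized intensity on each array (vertical axis, from 0) for the members whose values are described most fully, by line; filled points at the left of each pair are labelled mutants, open points at the right wild types, and bars the mean of 4. Cd28, Trat1 and Zap70 are the dim probes that passed in the Hmgn1 line; Cd3d and Cd27 separate the groups in the Hmgn5 line and Cd4 in the Hmgn3 line.

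In other T cell lists 5 genes passed in spleen. Tested in each line were 22 receptor signalling, 16 early and 22 late genes. Over all probes 2.01%, 1.28% and 0.389% passed as lower in the Hmgn1, Hmgn3 and Hmgn5 lines. As higher, 1.08%, 0.832% and 0.513% passed. In the Hmgn1 line the adaptor Grap2 (-0.54, adjusted p = 0.0244) and the transcription factor Nfatc1 (-0.35, adjusted p = 0.0344) fell and the Notch target Dtx1 rose (0.44, adjusted p = 0.0452). In the Hmgn3 line the Notch target Nrarp rose (0.59, adjusted p = 0.0237), and in the Hmgn5 line Lgals1, galectin-1, rose (0.84, adjusted p = 0.0317), all by limma. Single arrays decided these calls. They were lost without labelled mutant 2, 3 or 4 or wild type 1, 2 or 3 for Grap2 (adjusted p 0.0577 to 0.101), without labelled mutant 2, 3 or 4 or wild type 1 or 2 for Nfatc1 (0.0685 to 0.152), without labelled mutant 2, 3 or 4 or wild type 1, 2 or 3 for Dtx1 (0.0685 to 0.169), without labelled mutant 3 or 4 or wild type 1 or 2 for Nrarp (0.0653 to 0.0981) and without labelled mutant 1 or 4 or wild type 2 for Lgals1 (0.0532 to 0.0982).

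Spleens also differed in other cells. The summed intensity of the pancreatic acinar markers, 9 of 9 of which were tested, ranged between 103 and 42100 in labelled mutants and between 157 and 14600 in wild types of the Hmgn1 line. It ranged between 80.1 and 6800 in labelled mutants and between 64.8 and 931 in wild types of the Hmgn3 line, and between 44.7 and 20800 in labelled mutants and between 586 and 17000 in wild types of the Hmgn5 line. The summed B cell markers ranged between 5510 and 6670 in labelled mutants and between 6520 and 7760 in wild types of the Hmgn1 line, between 3760 and 4280 in labelled mutants and between 4070 and 4640 in wild types of the Hmgn3 line, and between 2890 and 4040 in labelled mutants and between 3670 and 4090 in wild types of the Hmgn5 line. The summed macrophage markers ranged between 3530 and 5620 in labelled mutants and between 5690 and 7090 in wild types of the Hmgn1 line, with no overlap. They ranged between 2590 and 3330 in labelled mutants and between 3190 and 5540 in wild types of the Hmgn3 line, with overlap. In the Hmgn5 line they ranged between 2600 and 3150 in labelled mutants and between 3270 and 4660 in wild types, with no overlap. Of the markers in these sums, Lyz2 had means of 2078, 1557 and 1703 in labelled mutants and 3984, 3177 and 2851 in wild types of the Hmgn1, Hmgn3 and Hmgn5 lines. By marker, 1, 6 and 5 of 7 lay above 0, with medians of -0.19, 0.24 and 0.11. Their part in the changes of the members was not tested.

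Direct tests of differences between organs and lines gave 0 members. In the difference thymus minus spleen of each mouse, labelled mutant minus wild type, 0 member probes passed in any line, where 0.00996%, 0% and 0.0149% of 20072 probes passed, and the nearest was Cd3d in the Hmgn5 line (-0.92, adjusted p = 0.0908, limma). In the F test of the mutant effect between lines 0 members passed in thymus, where 0.0494% of all probes did, and 0 in spleen.

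Brain and liver served as tissues with few T cells. In brain 33 member probes were tested and in liver 22, and 0 passed in any line by limma, where 0%, 0.0104% and 0.0208% of all probes passed in brain and 0.0318%, 0% and 0.42% in liver of the Hmgn1, Hmgn3 and Hmgn5 lines. At an unadjusted p under 0.05 there were 1, 3 and 1 member probes in brain, where 3.87%, 10.7% and 8.95% of all probes lay there, and 4, 0 and 2 in liver, where 8.09%, 4.86% and 11.1% did. Members known from neurons were bright in brain: Thy1 read 9951 to 15220 in labelled mutants and 8564 to 14110 in wild types, Satb1 2078 to 3627 in labelled mutants and 1915 to 4114 in wild types, and Bcl11b 1001 to 2138 in labelled mutants and 942 to 2150 in wild types.

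Zap70 was bright in liver on a pair of its probes. The main probe read 109 to 418 in labelled mutants and 99.1 to 482 in wild types, above noise on 22 of 22 arrays, and the second 64.9 to 222 in labelled mutants and 64.7 to 219 in wild types, while the dim probe that passed in spleen was above noise on 3 of 22. In the Hmgn5 line the main probe read 331, 268, 326 and 304 in labelled mutants, against 475, 482 and 428 in wild types, with no overlap (-0.57, adjusted p = 0.0879, limma).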

How the data were processed

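Total RNA of 4 tissues was extracted with Trizol and RNeasy and hybridised as biotin-labelled cRNA to Illumina arrays, per the labels' protocols. The submitters' processing notes name GenomeStudio 2011.1. The values used are deposited intensities on a linear scale. The values themselves show that background had been subtracted, since 19.1 to 29.1 percent lay below 0 on an array, and that quantiles were shared within a line and tissue only; no source used here names the method. A raw table with 188 columns whose names match no label was not used. Wild types were assigned to lines by mouse numbers, with 1 mouse by elimination.

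Values were set to at least 0, an offset of 16 was added and log2 was taken. Noise was the root mean square of the negative values of an array. The 6 groups of a tissue entered a single fit by limma 3.58.1 (R 4.3.3); thymus minus spleen used the mouse as a fixed block. Tests were two-sided. A bound (at least N-fold) raises each dim value to the noise limit. Replicate numbers did not pair mice (correlations of deviations -0.446 to 0.484 over 46 pairs). The most similar arrays gave no sign of a repeated sample. Values on every array of a group are given for member probes that passed, in the line where they passed. They are also given for the recombination and pre-TCR genes and Il7r in thymus. Other genes of the largest and smallest organ differences are given as ranges or changes. Other arrays shown were chosen after their values were seen. The members and gene lists were chosen with earlier results of these data known. Alternatives are given in the closing section.

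The scripts were tested on simulated data. In a simulated Hmgn1 thymus comparison of 18697 probes, 36 percent of shifts of 0.5 and 86 percent of shifts of 1 (log2) were found, with 3 false among 125 calls. In a simulated Hmgn1 spleen comparison of 18176 probes, 43 and 95 percent were found, with 15 false among 153 calls. In a simulated thymus minus spleen comparison of 16794 probes, 98 percent of shifts of 1 were found, with 14 false among 211 calls. That simulation shifted 200 probes and placed no other difference between organs, mice or lines. In the data 27.4% of probes were higher in thymus and 22.4% lower. It therefore does not test the joint quantile normalization under so many differences. Shifts were placed only in probes whose mean log2 level lay more than 1 above that of an intensity of 0. Noise was drawn independently for each probe and array. The shares found therefore do not cover dimmer probes or variation that probes share.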

Additional observations from a re-analysis of the deposited data

Results flagged for a closer look

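In groups of 4 arrays the highest or lowest value of a member was flagged when its gap to the nearest other array exceeded Dixon's critical share of the range of the group, which chance passes in about 5 percent of groups. Only part of the member probes was examined: those that passed a mutant test, the recombination and pre-TCR genes, and the largest and smallest organ differences. Cd247, with its low value in Hmgn5 wild type 4 in thymus, was not among them. Of 156 groups examined in thymus and spleen 9 were flagged (5.77%), which is close to that share. A further 6 groups with several values at the floor were left out.

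In thymus, Cd27 read 1774 in labelled Hmgn3 mutant 2, with the other labelled mutants between 1111 and 1197. Foxp3 read 18.29 in labelled Hmgn5 mutant 1, with the others between 12.9 and 13.6. Trat1 read 522.4 in labelled Hmgn5 mutant 4, with the others between 1028 and 1151, and 1278 in Hmgn5 wild type 4, with the others between 984 and 1022. A dim Cd28 probe read 62.41 in the same wild type, with the others between 230 and 276. Il7r read 316.3 in Hmgn5 wild type 1, with the others between 199 and 205.

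In spleen, the dim Cd28 probe that passed in the Hmgn1 line read 38.04 in labelled Hmgn1 mutant 1, with the others between 13.2 and 14.9. The same probe read 1.864 in labelled Hmgn5 mutant 2, with the others between 7.48 and 8.15. Il7r read 191.3 in Hmgn3 wild type 1, with the others between 219 and 224.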

How the results depend on the processing

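In thymus, brain and liver the count of member probes past the threshold stayed at 0 in every line under every alternative run. In spleen it moved from 3, 1 and 2 in the Hmgn1, Hmgn3 and Hmgn5 lines to 0, 0 and 0 with a floor of 1 in place of the offset and with a running number as a linear covariate (1 to 4 for wild types and 5 to 8 for labelled mutants, an order the labels do not state), to 2, 0 and 1 with no filter, to 4, 3 and 5 with a stricter filter, to 6, 3 and 7 with array weights, to 1, 1 and 6 with the 3 lines quantile-normalized together and to 0, 0 and 1 with the arrays of the line alone. The replicate block gave 8, 3 and 5; the replicates share only a number, so it is given here alone. Leaving out 1 array gave 0 to 8, 0 to 3 and 0 to 5. Thymus minus spleen gave 44 to 45 member probes, 38 higher and 6 to 7 lower, without single mice, and 4 lower in the Hmgn5 line alone.

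Directions turned for Il7r in thymus, to 0.037, 0.1546 and 0.1766 in the Hmgn1, Hmgn3 and Hmgn5 lines with the running number as a covariate, which by its construction carries the slope within groups across the step between genotypes. The median of the member genes turned to 0.0444 in Hmgn3 thymus and -0.0543 in Hmgn3 spleen with that covariate, to -0.0066 in Hmgn1 spleen without wild type 1, and in Hmgn3 spleen to -0.0185 without wild type 1 and -0.0056 without labelled mutant 3; over single arrays left out it ranged between -0.0066 and 0.1005 in the Hmgn1 line and between -0.0185 and 0.0482 in the Hmgn3 line. In thymus minus spleen, Icos turned to 0.3012 on deposited values and 0.0641 in the Hmgn5 line alone, Ctla4 to 0.0403 and to 0.0049 in the Hmgn3 line alone, and Cd96 to -0.26 there. The cause of the other turns was not tested. Probes near noise, among them Ptcra, Rag1 and Dntt in spleen, limit what these arrays resolve.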
